A study of Mus musculus with 20 samples.

Results

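The RNA exosome subunits were the mouse genes Exosc1 to Exosc10, which were defined by their gene names. Of these 10 genes, 9 had a row of their own in the count files, among 34937 genes in all. Exosc6 had none: its RefSeq locus on chromosome 8 (GRCm38, 111056339 to 111057664) lay entirely within exons of the Aars gene model on the same strand, so its transcripts could only be counted as Aars, an alanyl-tRNA synthetase gene, and no value is given for it. Transcripts of single 8-cell embryos at E2.5 were sequenced from 9 Ehmt2Cntr and 10 Ehmt2Mat embryos of mixed genetic background. Ehmt2 encodes G9a, a histone methyltransferase that places dimethylation on lysine 9 of histone H3. Ehmt2Cntr embryos came from Ehmt2F/+ mothers carrying Zp3-Cre and Ehmt2Mat embryos from Ehmt2F/- mothers carrying Zp3-Cre, and every father was Ehmt2+/-. Zp3-Cre is active in the growing oocyte, so that the mothers of both groups carried the transgene and Ehmt2Mat embryos lacked maternally supplied G9a. The zygotic Ehmt2 genotype was +/+ in 6 and +/- in 3 Ehmt2Cntr embryos. In Ehmt2Mat it was -/- in 5 embryos, called Ehmt2M/Z, and +/- in the other 5, called Ehmt2M/+. A further control embryo named in the labels was not analysed here. The groups came from different mothers, no label tied embryos to a litter, and p-values therefore measure the spread between these embryos.

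The RNA exosome degrades or trims RNA from its 3′ end, and in the nucleus it processes ribosomal RNA precursors and removes short-lived transcripts. EXOSC4 to EXOSC9 form a ring that in mammals has no catalytic activity of its own, EXOSC1, EXOSC2 and EXOSC3 form an RNA-binding cap on that ring, and EXOSC10 is a 3′ exonuclease attached to the nuclear complex. DIS3 in the nucleus and DIS3L in the cytoplasm supply further nuclease activity, and helicase-containing cofactors deliver the substrates. In the cleavage-stage embryo, maternal RNA is cleared while the embryonic genome becomes active.

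Exosc2, Exosc4 and Exosc10 were the members called higher in Ehmt2Mat embryos by the edgeR test described below (adjusted p below 0.05). The promoters of Exosc2 and Exosc10 are shown because both genes were called. Whether they share regulation was not tested. RefSeq windows (GRCm38.p6), from 250 bases before to 50 bases after an annotated start, were found for 8 of the 10 members, with no entry for Exosc4 or Exosc9 and a pair of windows for Exosc10, of which the more upstream is shown. Each sequence runs 5′ to 3′ on the + strand from 250 bases before to 20 bases after the start. Capitals mark motif matches on either strand, in Exosc2 the CCAAT box (CCAAT, or ATTGG where the match is on the other strand) and in Exosc10 the core site of ETS factors (CCGGAA).
Exosc2, chr2:31670465-31670734: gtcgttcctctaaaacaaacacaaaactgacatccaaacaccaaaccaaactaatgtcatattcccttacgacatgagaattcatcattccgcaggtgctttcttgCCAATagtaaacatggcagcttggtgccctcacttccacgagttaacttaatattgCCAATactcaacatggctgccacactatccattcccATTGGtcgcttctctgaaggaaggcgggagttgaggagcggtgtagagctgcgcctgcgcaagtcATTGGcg
Exosc10, chr4:148558169-148558438: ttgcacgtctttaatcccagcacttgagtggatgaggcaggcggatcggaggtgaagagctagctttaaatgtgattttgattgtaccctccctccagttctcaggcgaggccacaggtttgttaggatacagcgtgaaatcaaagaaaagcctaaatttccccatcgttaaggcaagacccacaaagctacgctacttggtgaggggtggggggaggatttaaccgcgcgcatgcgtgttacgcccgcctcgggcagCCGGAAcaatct
The Exosc2 window held CCAAT on the + strand starting 144 and 88 bases before the start and on the other strand at -52 to -48 and 14 to 18. CCAAT was found in 37.4% of 32851 RefSeq promoter windows of the same length. The more upstream Exosc10 window held CCGGAA at 9 to 14, a match present in 14.9% of all windows. It also held a GC box (GGGCGG) on the other strand at 32 to 37, beyond the stretch printed, present in 35.7% of windows. The other Exosc10 window, not printed, held CCGGAA at -89 to -84 and, on the other strand, at -63 to -58 and 1 to 6. Which start was used in these embryos was not tested. The 2 windows printed shared none of the 8 motifs searched on both strands. Beside the CCAAT box, CCGGAA and the GC box, these were the E-box (CACGTG), the NRF1 site, the YY1 site, the CRE (TGACGTCA) and the TATA box (TATAAA). The E-box, in 7.15% of all windows, and the NRF1 site, in 0.971%, were each found in 1 member, Exosc5. CCAAT was also found in Exosc1 and Exosc5, CCGGAA in Exosc3, and GGGCGG in Exosc1, Exosc3, Exosc5, Exosc7 and Exosc8. No member's window held the YY1 site (0.852% of all windows), the CRE (1.79%) or the TATA box (13.6%).

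The libraries had 8231646 to 30602434 counts each, with medians of 16515440 in Ehmt2Cntr and 16045900 in Ehmt2Mat, and 3 counts corresponded to 0.098 to 0.364 per 1000000 counts. Levels are given in CPM, the counts per 1000000 of a library size adjusted by TMM normalisation. Control embryo 10 stood apart from the other controls, with a count in 16142 genes against 12068 to 13230. Ehmt2Mat embryos had a count in 12754 to 16412 genes. All of them except embryos 3 (13204) and 10 (12754) exceeded every control other than embryo 10. The part of this group difference in the results was not tested. All 5 markers of the preimplantation embryo (Pou5f1, Tfap2c, Tead4, Dppa3 and Cdh1) reached 1 CPM in every embryo. Their summed level was 1860 to 3190 CPM in Ehmt2Cntr and 3000 to 3930 CPM in Ehmt2Mat. Dppa3 made up most of it, at 1258 to 2613 and 1965 to 2839 CPM. Tead4 and Tfap2c passed the test (log2 fold changes 0.90 and 0.75, edgeR Benjamini-Hochberg adjusted p = 0.0046 and 0.0183). Dppa3 (0.32), Pou5f1 (-0.18) and Cdh1 (-0.36) did not. The 5 oocyte markers summed to 32.0 to 263 and 101 to 354 CPM, and of these Oosp1 alone passed the test, with medians of 8.41 CPM in Ehmt2Cntr and 62.8 CPM in Ehmt2Mat (log2 fold change 2.70, SE 0.54, edgeR Benjamini-Hochberg adjusted p = 0.00277), while Zp3, Gdf9, Bmp15 and Nlrp5 ran from -0.88 to 0.38 on the log2 scale. The 5 markers of the 2-cell stage summed to 0.722 to 39.7 and 5.72 to 42.3 CPM. Of the 5 cumulus cell markers, Has2, Ptx3 and Fshr were at 0 in every embryo, and the sum, 22.4 to 109 and 42.0 to 165 CPM, came nearly all from Amhr2. The part of these markers in the results was not tested. Ehmt2 itself was at 66.4, 132.7 and 252.6 CPM (lowest, median and highest) in Ehmt2Cntr and at 58.4, 94.7 and 158.2 CPM in Ehmt2Mat. The groups overlapped and the difference did not pass the test (log2 fold change -0.47, SE 0.24, adjusted p = 0.233, edgeR with Benjamini-Hochberg adjustment over all genes tested). These counts cover all exons of Ehmt2, the excised ones not being counted separately, so they do not check the maternal genotypes.

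To ask how the exosome subunits differed between the maternal groups, Ehmt2Mat was compared with Ehmt2Cntr by the quasi-likelihood test of edgeR. It covered 11754 genes, of which 9 were members. The groups also differed in zygotic Ehmt2 genotype, with no +/+ embryo in Ehmt2Mat and no -/- embryo in Ehmt2Cntr. Maternal and zygotic parts of a change cannot be told apart in this comparison. A gene was called where its Benjamini-Hochberg adjusted p over all tested genes was below 0.05. Exosc2, Exosc4 and Exosc10 rose, by 3.09, 1.88 and 2.05-fold, and no member fell. These 3 of 9 members stood against 9.35% of all tested genes called in either direction, 4.37% higher and 4.98% lower. The members were more deeply counted than most tested genes, and called shares were larger among such genes. Limited to genes with at least 10 counts in every embryo, the test called 1375 of 7154 genes, 640 of them higher. Exosc3 was called there as well. The members' log2 fold changes ran from -0.52 to 1.63 with a median of 0.27, beside a median of -0.04 over all tested genes, 7 being positive and 2 negative. Whether more or fewer RNA molecules per cell or a different number of cells in an embryo lay behind a level cannot be told apart in such libraries.

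**Figure D1:**
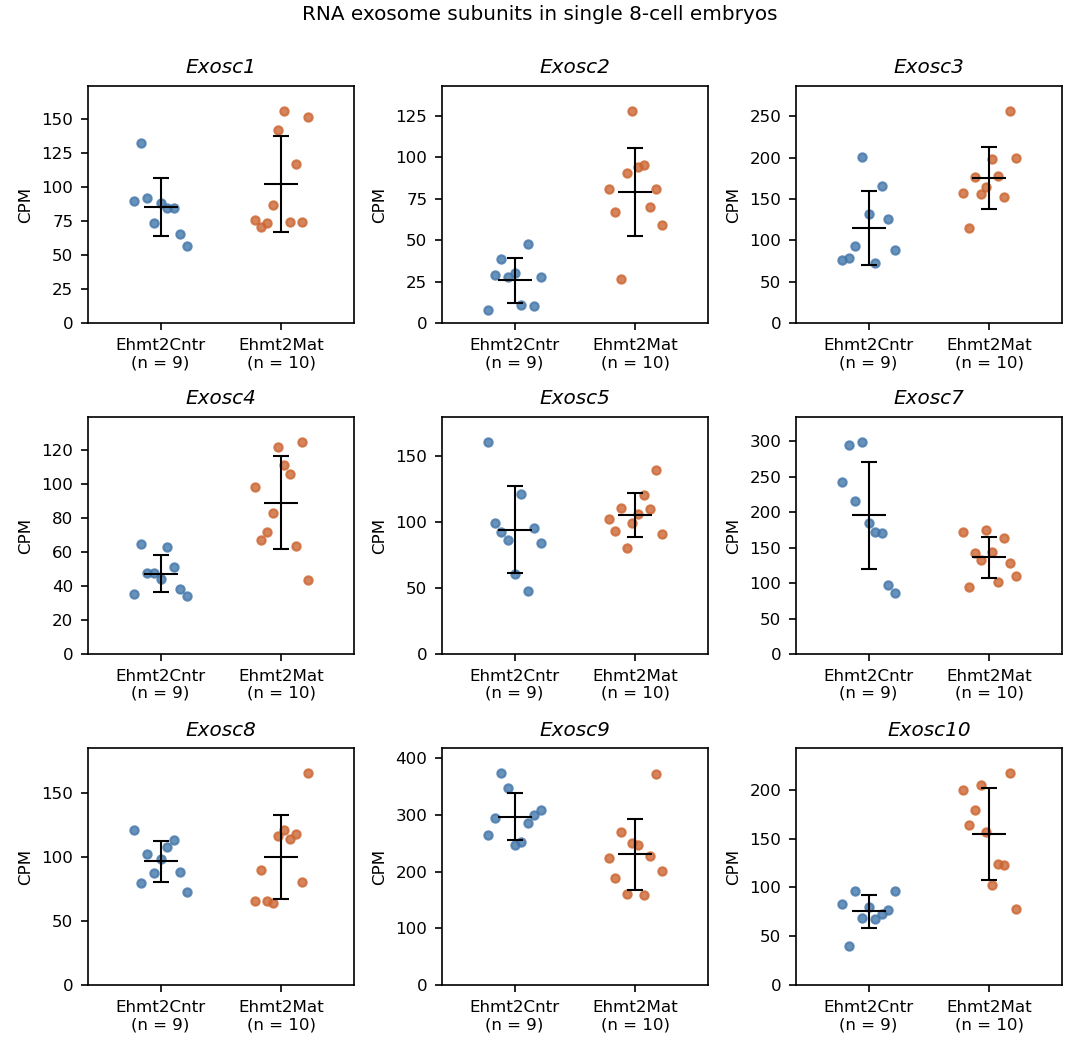
Levels in CPM (vertical axes starting at 0) of the 9 measured exosome subunits, with 1 point for each embryo and the mean ± SD in black. For Exosc2, Exosc4 and Exosc10 most of the 10 Ehmt2Mat embryos lie above every one of the 9 Ehmt2Cntr embryos, while for Exosc7 and Exosc9 the Ehmt2Mat points sit low.

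Among the cap subunits, Exosc2 (ENSMUSG00000039356, chromosome 2, 31670715 to 31681349, + strand) showed the largest change of all members. Its protein carries RNA-binding domains and sits at the entry of the ring. Exosc2 was at 7.98, 29.3, 39.0, 28.1, 30.3, 10.7, 47.7, 10.4 and 27.8 CPM in Ehmt2Cntr embryos 1, 2, 3, 5, 6, 7, 8, 9 and 10. In Ehmt2Mat embryos 1 to 10 it was at 81.0, 67.0, 26.7, 90.9, 127.8, 94.0, 95.5, 70.2, 80.8 and 59.4 CPM. Thus 9 of 10 Ehmt2Mat embryos lay above the highest control, and embryo 3, the library with the fewest counts, lay among the controls. The mean level was 25.7 ± 13.6 CPM (SD, n = 9) in Ehmt2Cntr and 79.3 ± 26.6 CPM (SD, n = 10), from 138 to 1250 and 223 to 3003 counts an embryo. The log2 fold change was 1.63 (SE 0.33, 95% interval 0.955 to 2.298), with an edgeR Benjamini-Hochberg adjusted p of 0.0029. The exact two-sided permutation test over all 92378 splits of the embryos, applied to the mean log2 CPM, gave p = 0.000152. Gm13427, an antisense gene that shares 358 bases or 12.4% of the Exosc2 exons, was at no more than 0.496 CPM in Ehmt2Cntr and 2.32 CPM in Ehmt2Mat, and with its counts taken off, an alternative chosen after seeing the data, Exosc2 was still called higher.

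Exosc3 (ENSMUSG00000028322, chromosome 4, 45316613 to 45342732, - strand), another RNA-binding subunit of the cap, was next to the threshold. It was at 73.0, 93.8 and 201.0 CPM (lowest, median and highest) in Ehmt2Cntr and at 114.4, 170.6 and 256.1 CPM in Ehmt2Mat. All 10 Ehmt2Mat embryos were above the control median, but only 1 was above the highest control, embryo 5. Its log2 fold change of 0.61 (SE 0.20, 95% interval 0.19 to 1.03) had an edgeR adjusted p of 0.0592, while the exact permutation p for this gene alone was 0.00427. It was called higher with upper-quartile normalisation (adjusted p = 0.0396, edgeR), with a minimum of 10 counts in every embryo (0.0362, edgeR), with DESeq2 (0.0248), and without control 5, control 8 or Ehmt2Mat embryo 2, the adjusted p over the fits that left out 1 embryo running from 0.0189 to 0.109. Exosc3 shares 53 bases, 4% of its exons, with the antisense gene Dcaf10.

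Exosc1 (ENSMUSG00000034321, chromosome 19, 41922980 to 41933314, - strand), the remaining cap subunit, did not pass the test. Its levels were 56.5, 84.6 and 132.3 CPM in Ehmt2Cntr and 70.7, 81.5 and 155.8 CPM in Ehmt2Mat. The Ehmt2Mat embryos were evenly split by the control median, with 5 above it. The log2 fold change was 0.27 (SE 0.21, 95% interval -0.17 to 0.70, edgeR adjusted p = 0.493, exact permutation p = 0.252).

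Of the ring subunits, Exosc4 (ENSMUSG00000034259, chromosome 15, 76327397 to 76330677, + strand) was higher in Ehmt2Mat. EXOSC4 is one of the RNase PH-like proteins that build the ring. Exosc4 was at 35.5, 64.5, 47.7, 47.4, 43.9, 62.8, 51.4, 38.2 and 33.9 CPM in Ehmt2Cntr embryos 1, 2, 3, 5, 6, 7, 8, 9 and 10. It was at 98.1, 67.0, 71.9, 83.1, 121.7, 111.0, 105.9, 63.4, 124.3 and 43.5 CPM in Ehmt2Mat embryos 1 to 10. The groups overlapped in Ehmt2Mat embryos 8 and 10, and the other 8 lay above every control. Exosc4 averaged 47.3 ± 10.99 CPM (SD, n = 9) against 89.0 ± 27.3 CPM (SD, n = 10), and its log2 fold change was 0.91 (SE 0.21, 95% interval 0.47 to 1.36). The edgeR adjusted p was 0.00852 and the exact permutation p was 0.000693. Oplah, which lies antisense to Exosc4 over 385 bases or 19.8% of its exons, was at 13.96 CPM at most in Ehmt2Cntr and 14.4 CPM at most in Ehmt2Mat, and Exosc4 was still called with those counts taken off, again an alternative chosen after seeing the data.

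The other ring subunits did not pass the test, and Exosc7 and Exosc9 leaned the opposite way. Exosc7 (ENSMUSG00000025785, chromosome 9, 123113215 to 123136129, + strand) was at 242.6, 294.2, 215.3, 298.5, 184.6, 171.7, 171.1, 97.8 and 86.3 CPM in Ehmt2Cntr embryos 1, 2, 3, 5, 6, 7, 8, 9 and 10. It was at 94.1, 138.0 and 175.6 CPM (lowest, median and highest) in Ehmt2Mat. The controls were spread widely, 5 of them lying above every Ehmt2Mat embryo and control 10 below all of them. The log2 fold change of Exosc7 was -0.52 (SE 0.21, 95% interval -0.96 to -0.08, edgeR adjusted p = 0.134, exact permutation p = 0.0687). Without control 10 it was -0.62 and Exosc7 was called lower (edgeR adjusted p = 0.0487), so that 4 members were called in that fit. Exosc2, Exosc4 and Exosc10 remained called higher without that embryo, with log2 fold changes of 1.64, 0.86 and 1.09.

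Exosc9 (ENSMUSG00000027714, chromosome 3, 36552606 to 36565727, + strand) was at 246.1, 294.5 and 373.1 CPM in Ehmt2Cntr and at 158.2, 225.6 and 372.3 CPM in Ehmt2Mat. Of the 10 Ehmt2Mat embryos, 6 lay below every control and embryo 9 lay near the highest control. The log2 fold change of -0.37 (SE 0.16, 95% interval -0.70 to -0.04) had an edgeR adjusted p of 0.164. For this gene alone, unadjusted, edgeR gave p = 0.031 and the exact permutation test gave p = 0.0108. Exosc9 shares 510 bases, 10.8% of its exons, with the antisense gene Ccna2, which encodes cyclin A2 and was counted without regard to strand. Ccna2 was the more abundant gene, at 930 to 1641 CPM in Ehmt2Cntr and 538 to 1642 CPM in Ehmt2Mat, with a log2 fold change of -0.47 (SE 0.20, edgeR adjusted p = 0.160). How many of the Exosc9 counts came from Ccna2 transcripts cannot be told apart.

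Exosc5 (ENSMUSG00000061286, chromosome 7, 25659153 to 25668031, + strand) was at 47.4, 92.7 and 160.2 CPM in Ehmt2Cntr and 80.2, 104.1 and 139.6 CPM in Ehmt2Mat, and every Ehmt2Mat embryo lay within the range of the controls. Its log2 fold change was 0.16 (SE 0.19, 95% interval -0.24 to 0.56, edgeR adjusted p = 0.684, exact permutation p = 0.233). Exosc8 (ENSMUSG00000027752, chromosome 3, 54728678 to 54735393, - strand) was at 72.5, 98.1 and 121.4 CPM in Ehmt2Cntr and 64.3, 102.0 and 165.2 CPM in Ehmt2Mat, with 3 Ehmt2Mat embryos below and 1 above every control. Its log2 fold change was 0.05 (SE 0.19, 95% interval -0.35 to 0.45, edgeR adjusted p = 0.915). Exosc8 shares 89 bases, 2.05% of its exons, with the antisense gene Supt20, and reads of both genes cannot be told apart there. For Exosc6, the covering gene Aars had medians of 189.3 CPM in Ehmt2Cntr and 178.7 CPM in Ehmt2Mat, and the Exosc6 locus made up 14.3% of the Aars exon bases.

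The nuclease subunit Exosc10 (ENSMUSG00000017264, chromosome 4, 148558429 to 148582401, + strand) rose in Ehmt2Mat. It was at 82.8, 39.7, 96.2, 68.3, 79.9, 67.8, 72.5, 77.2 and 96.1 CPM in Ehmt2Cntr embryos 1, 2, 3, 5, 6, 7, 8, 9 and 10. In Ehmt2Mat embryos 1 to 10 it was at 199.7, 164.3, 179.3, 204.7, 156.5, 102.8, 123.8, 123.5, 217.0 and 77.5 CPM. Embryo 10 was the lowest of its group for both Exosc10 and Exosc4, and for Exosc10 the other 9 Ehmt2Mat embryos exceeded every control. Exosc10 averaged 75.6 CPM with an SD of 17.1 (n = 9) in Ehmt2Cntr, 154.9 CPM with an SD of 46.8 (n = 10) in Ehmt2Mat, and its log2 fold change was 1.04 (SE 0.21, 95% interval 0.61 to 1.46). The edgeR adjusted p was 0.00279 and the exact permutation p was 0.000184. No exon of Exosc10 overlaps another gene model.

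The catalytic partners of the ring, 2 of 2 tested, did not pass the test. Dis3, whose product is the processive nuclease of the nuclear complex, was at 27.8, 97.6 and 148.4 CPM in Ehmt2Cntr and 49.0, 90.9 and 152.1 CPM in Ehmt2Mat. Its log2 fold change was -0.07 (SE 0.28, 95% interval -0.65 to 0.50, edgeR adjusted p = 0.916). Dis3 shares 325 bases, 8.73% of its exons, with the antisense gene Pibf1. Dis3l, which encodes the cytoplasmic counterpart, was lower at 1.34 to 25.1 and 4.04 to 37.6 CPM, and its interval of -0.80 to 1.22 on the log2 scale left room for a change of more than 2-fold.

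**Figure D2:**
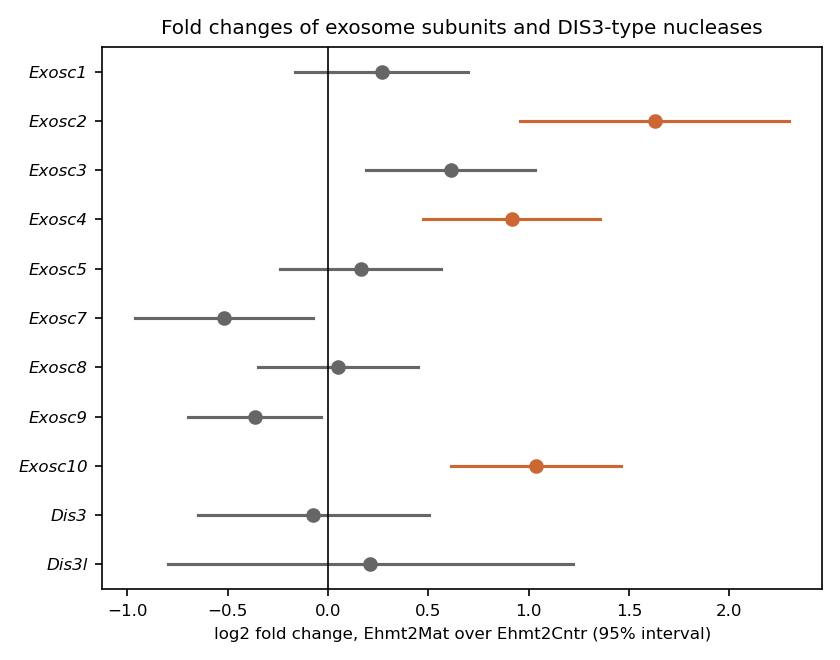
Fitted log2 fold changes (points) with 95% intervals (lines) of the 9 measured exosome subunits and the nuclease genes Dis3 and Dis3l, Ehmt2Mat over Ehmt2Cntr, with orange for an adjusted p below 0.05 and grey for the rest. Exosc2, at 1.63, Exosc10, at 1.04, and Exosc4, at 0.91, are the orange points, and the points of Exosc7 and Exosc9 lie below 0.

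Per length of the gene models, in RPKM (CPM divided by the exon length in kilobases), the members covered a wide range. In mean levels it was narrower in Ehmt2Mat through Exosc2 alone. In Ehmt2Cntr, Exosc7 was highest with 106 ± 41.0 RPKM (SD, n = 9), followed by Exosc5 (91.4 ± 31.8), Exosc3 (86.8 ± 33.9), Exosc9 (63.1 ± 8.92), Exosc1 (52.5 ± 13.2), Exosc4 (24.3 ± 5.65), Exosc8 (22.3 ± 3.71), Exosc10 (21.0 ± 4.75) and Exosc2 (8.89 ± 4.70 RPKM). Neighbours from Exosc7 to Exosc1 and from Exosc4 to Exosc10 differed by less than the larger SD of the pair, whereas the steps from Exosc1 to Exosc4 and from Exosc10 to Exosc2 were larger than the SD of either gene. In Ehmt2Mat, Exosc3 was highest with 132 ± 28.3 RPKM (SD, n = 10), followed by Exosc5 (102 ± 16.1), Exosc7 (74.0 ± 15.6), Exosc1 (63.1 ± 22.0), Exosc9 (48.9 ± 13.3), Exosc4 (45.8 ± 14.0), Exosc10 (43.1 ± 13.0), Exosc2 (27.5 ± 9.21) and Exosc8 (23.1 ± 7.56 RPKM). There the steps from Exosc3 to Exosc5, from Exosc5 to Exosc7 and from Exosc10 to Exosc2 exceeded the SD of either gene, and the other steps did not. The highest mean level was 11.95 times the lowest in Ehmt2Cntr (Exosc7 over Exosc2) and 5.73 times in Ehmt2Mat (Exosc3 over Exosc8). This narrowing of the mean levels restates the called rise of Exosc2, the lowest member in Ehmt2Cntr. Among the other members the means ran from 21.0 (Exosc10) to 106 RPKM (Exosc7) in Ehmt2Cntr. In Ehmt2Mat they ran from 23.1 (Exosc8) to 132 RPKM (Exosc3), a range that was no narrower. Within single embryos the ratio of the highest to the lowest member was 7.58, 15.7 and 56.3 (lowest, median and highest) in Ehmt2Cntr. In Ehmt2Mat it was 4.36, 6.34 and 14.5. The cDNA amplification favours 3′ ends, so levels of the long models of Exosc8 and Exosc9, of 4333 and 4709 exon bases, can be understated per length against Exosc5, of 1030 bases. The summed level of the 9 members was 853, 1039 and 1238 CPM (lowest, median and highest) in Ehmt2Cntr and 948.5, 1133 and 1473 CPM in Ehmt2Mat.

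To describe the balance between subunits free of library scaling, the log2 ratio of CPM was taken for each of the 36 pairs of members in every embryo, a measure chosen after seeing the data and given with no test. The mean ratio moved between the groups by 0.01 to 2.20 on the log2 scale, with a median of 0.71. The ratio of Exosc2 to Exosc7 moved most, from -3.04 ± 1.04 (SD, n = 9) to -0.85 ± 0.64 (SD, n = 10). That of Exosc10 to Exosc9 went from -2.0 ± 0.40 to -0.59 ± 0.52, and that of Exosc3 to Exosc9 from -1.45 ± 0.51 to -0.38 ± 0.31. For these last 2 pairs all 10 Ehmt2Mat embryos lay above all 9 controls, as happened in 0.382% of the 69072381 pairs of tested genes. Both include Exosc9, whose counts overlap those of Ccna2. Exosc10 and Exosc3 leaned higher and Exosc9 lower in these same embryos, so the separation was favoured in advance and gives no separate evidence. The remaining 34 pairs overlapped between the groups, but without Ehmt2Mat embryo 3 the pairs with no overlap numbered 4, Exosc2 with Exosc7 and with Exosc9 being added. The ratio of Exosc10 to Exosc4 moved little, from 0.67 ± 0.66 to 0.80 ± 0.49, as did that of Exosc9 to Exosc7, from 0.70 ± 0.64 to 0.74 ± 0.37. The pairs share members and are not independent.

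**Figure D3:**
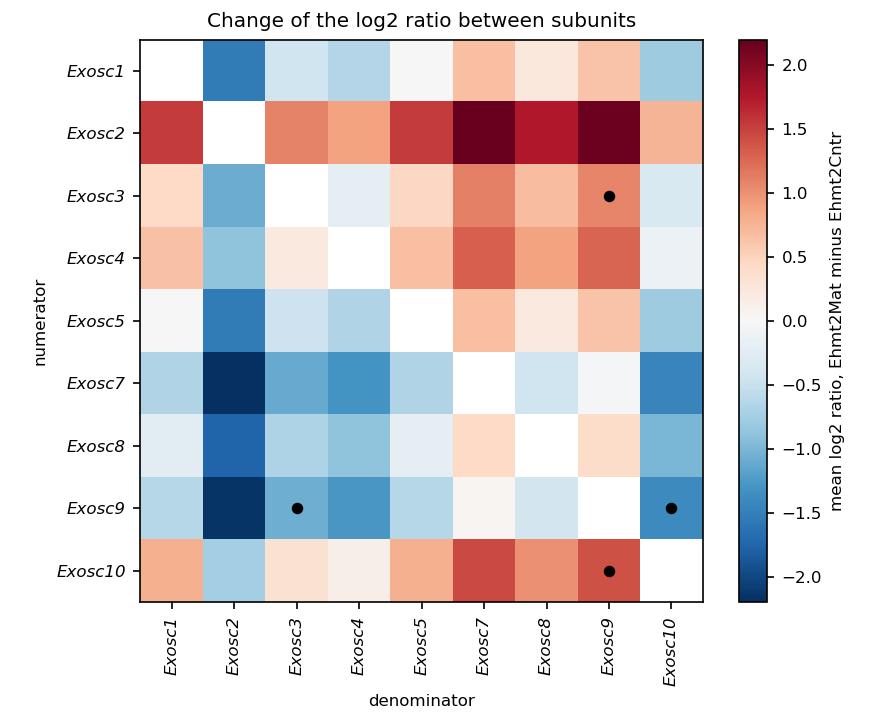
Colour shows the mean log2 ratio of the row subunit to the column subunit in Ehmt2Mat minus that in Ehmt2Cntr, red for a higher and blue for a lower ratio in Ehmt2Mat, and each pair appears once on either side of the diagonal. Dots mark the 2 pairs, Exosc3 with Exosc9 and Exosc10 with Exosc9, whose 19 embryos do not overlap between the groups, and the deepest colours join Exosc2 with Exosc7 and Exosc9.

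Zygotic genotype was then set against the maternal one. Exosc2 had mean levels of 26.1 ± 14 CPM in Ehmt2Cntr +/+ (SD, n = 6), 24.9 ± 15.7 in Ehmt2Cntr +/- (n = 3), 63.5 ± 24.3 in Ehmt2M/+ (n = 5) and 95.2 ± 19.3 CPM in Ehmt2M/Z (n = 5). Exosc4 followed the same order of the Ehmt2Mat subgroups, with 51.4 ± 10.5, 39.0 ± 7.56, 71.4 ± 24.7 and 106.6 ± 17.1 CPM. Exosc10 was at 67.5 ± 14.5, 91.7 ± 7.73, 129.5 ± 42.3 and 180.4 ± 39.0 CPM. In each of these genes the lowest Ehmt2M/Z embryo exceeded the highest control, at 80.8 against 47.7 CPM for Exosc2, 83.1 against 64.5 CPM for Exosc4 and 123.8 against 96.2 CPM for Exosc10. Of all 11754 tested genes 3.02% had no overlap between Ehmt2M/Z and the controls, in either direction, and the other 6 members overlapped. Exosc2, Exosc4 and Exosc10 had been called in the comparison that holds these same embryos, so their separation gives no separate evidence. Some Ehmt2M/+ embryos overlapped with the controls and with Ehmt2M/Z.

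**Figure D4:**
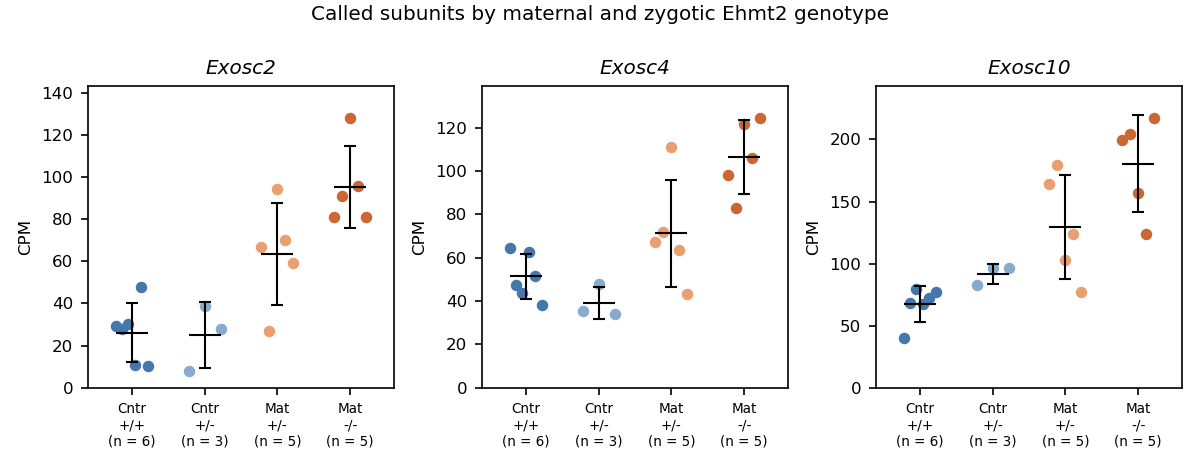
CPM (vertical axes starting at 0) of Exosc2, Exosc4 and Exosc10 by maternal group (Cntr for Ehmt2Cntr, Mat for Ehmt2Mat) and zygotic Ehmt2 genotype, with 1 point for each embryo and the mean ± SD in black. The 5 Ehmt2Mat -/- embryos (Ehmt2M/Z) lie above all controls in every panel, and the 5 Ehmt2Mat +/- embryos (Ehmt2M/+) reach down to 26.7, 43.5 and 77.5 CPM.

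Within Ehmt2Mat, Ehmt2M/Z minus Ehmt2M/+ gave log2 differences of 0.58 for Exosc2 (95% interval -0.09 to 1.25), 0.58 for Exosc4 (-0.01 to 1.16) and 0.48 for Exosc10 (-0.09 to 1.05). No member was called, and neither was any other of the 12195 genes tested (0%), by edgeR with Benjamini-Hochberg adjustment, while 270 genes had an unadjusted p below 0.05 and DESeq2 called 3. The other members ran from -0.35 for Exosc8 to 0.12 for Exosc7. Within Ehmt2Cntr, +/- against +/+ embryos differed by -0.57 for Exosc3 to 0.46 for Exosc10, with 0 of 9 members and 0 of 12646 genes (0%) called by edgeR, 572 at an unadjusted p below 0.05 and 3 called by DESeq2. Without control 10, edgeR called 1 of 13225 genes in that comparison, and still 0 members.

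At 1 zygotic genotype, +/-, 5 Ehmt2M/+ embryos were compared with 3 Ehmt2Cntr embryos. Of 13401 genes 1 was called (0.00746%), none of them a member, by edgeR with Benjamini-Hochberg adjustment, while 906 had an unadjusted p below 0.05 and DESeq2 called 79. The count rested on single embryos, with 7 of 14222 genes called without control 10 and 3 of 14592 without control 1, and 0 members in either fit. Exosc2 had a log2 fold change of 1.32 (SE 0.56, 95% interval 0.10 to 2.55), Exosc3 of 0.95 (SE 0.31, 0.28 to 1.62), Exosc4 of 0.85 (SE 0.40, -0.01 to 1.72) and Exosc10 of 0.48 (SE 0.34, -0.27 to 1.22). The smallest adjusted p of a member was 0.633 by edgeR, that of Exosc3. Exosc7 and Exosc9 were at -0.48 and -0.49, both intervals including 0. These embryos are part of the larger comparison and give no separate evidence.

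Genes that work with the exosome were examined next. Of 18 cofactor genes, all tested in Ehmt2Mat against Ehmt2Cntr, 1 was higher and 1 was lower, beside 4.37% higher and 4.98% lower among all tested genes, and their median log2 fold change was 0.004. Zc3h18, whose product links the nuclear cap-binding complex to the exosome, was at 17.0, 62.2 and 87.5 CPM (lowest, median and highest) in Ehmt2Cntr and 69.6, 115.1 and 183.9 CPM in Ehmt2Mat, a log2 fold change of 0.89 (SE 0.24, edgeR adjusted p = 0.0218) that missed the threshold with embryo number as a block (0.0795). Papd5, a non-canonical poly(A) polymerase that tags nuclear RNA for decay, was at 346.2, 542.5 and 772.2 CPM and at 174.6, 360.4 and 516.0 CPM, a log2 fold change of -0.56 (SE 0.18, edgeR adjusted p = 0.045) that missed the threshold in 12 of the 19 fits without 1 embryo.

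Among 15 other exoribonucleases, 14 were tested, with Dis3l2 below the filter, and again 1 rose and 1 fell, beside the same 4.37% and 4.98% of all tested genes, around a median log2 fold change of -0.18. Rexo4, an exonuclease gene of the REXO family, was at 67.7, 93.3 and 156.8 CPM in Ehmt2Cntr and 150.8, 232.0 and 289.6 CPM in Ehmt2Mat, a log2 fold change of 1.21 (SE 0.18, edgeR adjusted p = 0.000326). Eri1, which encodes a 3′ exonuclease of histone mRNA and small RNAs, was at 94.5, 164.9 and 204.9 CPM and at 20.6, 78.4 and 124.7 CPM, a log2 fold change of -1.03 (SE 0.24, edgeR adjusted p = 0.00852).

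Each of the 9 members had a smaller spread within the groups than most tested genes. The within-group SD of log2 CPM was smallest for Exosc9, at 0.30, a value that 1.17% of tested genes were below, and largest for Exosc2, at 0.77, which 40.8% were below. Deeply counted genes have smaller SDs, and the mean level of Exosc9 was above that of 94.3% and of Exosc2 above that of 67.1% of genes. Once group means were removed, the 36 pairs of members had a median Pearson correlation of 0.07 over 19 embryos, beside 0.003 for all pairs of tested genes. Values ran from -0.72 for Exosc1 with Exosc10 to 0.62 for Exosc1 with Exosc8, all given as a description of libraries that share depth and scaling. The genes outside the complex with the highest correlation with the members' mean were Nt5c (Pearson r = 0.84 over 19 embryos), Gins1 (0.78), Dtymk (0.77), Nme1 (0.77) and Cdc23 (0.77). They were picked as the highest of all tested genes, so high values were favoured in advance, and they were not tested.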

How the data were processed

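Single 8-cell embryos at E2.5 were freed of the zona, their cDNA was amplified by a single-cell method with 3′ bias, and 50 bp single-end reads were sequenced. Per the file headers, the deposited values are raw counts per gene made by the authors with featureCounts 1.5.0-p1 over exons of Ensembl gene models (GRCm38), with multi-mapping reads and reads on several genes counted, a minimum overlap of 10 bases and no strand setting, so reads of overlapping genes cannot be told apart. TopHat2 and DESeq2 are named in the submitters' processing notes. Of 34937 identifiers 34599 matched a symbol. From the 19 files, filterByExpr and TMM were applied and groups taken from the labels were compared with the quasi-likelihood test of edgeR 4.0.16 (R 4.3.3) with Benjamini-Hochberg adjustment over all tested genes. Log2 CPM used a prior count of 2, and RPKM used exon lengths in the files. Single members were also compared by exact two-sided permutation, with p-values not adjusted for the number of genes. DESeq2 1.42.0, other normalisations and filters, thinning to 8231646 counts, an exon length correction, a replicate block and leaving out each embryo were tried as alternatives, and the pipeline was tested on simulated data. The members, gene lists and tests were chosen with earlier results of these data known. Named genes were the members, Dis3, Dis3l, Ehmt2, every called gene of the cofactor and exoribonuclease lists, and the 5 genes most correlated with the members' mean, plus overlapping genes chosen after their values were seen. Promoter windows were from RefSeq.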

Additional observations from a re-analysis of the deposited data

Results flagged for a closer look

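Of 22 sets of values (11 genes in each group), 3 held an embryo far from the rest of its group by Dixon's test, where chance gives about 1 in 20. Control embryo 2 was the highest control for Exosc1, at 132.3 CPM, and the lowest for Exosc10, at 39.65 CPM. Ehmt2Mat embryo 9 was the highest of its group for Exosc9, at 372.3 CPM, close to the highest control.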

How the results depend on the processing

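The 3 called members stayed called higher under each of the alternatives to the comparison of Ehmt2Mat with Ehmt2Cntr, the number of members called being 3 or 4, also without any 1 embryo. The edgeR or DESeq2 adjusted p, leaving-out fits aside, ran from 1.78e-05 to 0.0228 for Exosc2, 0.000454 to 0.0494 for Exosc4 and 6.67e-05 to 0.0278 for Exosc10. A replicate block on embryo number, which also leaves out Ehmt2Mat embryo 4 as no control has its number, called 3 members and 693 genes, against 884 genes without that embryo and no block and 1099 with all embryos, and 679 with an exon length correction as well. Same-numbered embryos did not deviate together (correlations -0.156 to 0.0856), so the numbers do not pair them. DESeq2 called 1775 genes. The number of called cofactors was 2, and became 1 with no filter, 0 with the replicate block, 1 with the exon length correction, 0 with both, 3 with at least 10 counts in every embryo or with DESeq2, and 1 to 2 without 1 embryo. Of 828 alternative fold changes 20 changed sign, none with a main size above 0.211 on the log2 scale. For Dis3 these were 0.12 with the block and 0.12 with block and exon length. Without 1 embryo, the ranges that crossed 0 were -0.053 to 0.107 for Exosc8, -0.198 to 0.0224 for Dis3 and -0.0334 to 0.371 for Dis3l between the maternal groups. Between Ehmt2M/Z and Ehmt2M/+ they were -0.0346 to 0.19 for Exosc3, -0.0202 to 0.174 for Exosc5 and -0.19 to 0.16 for Exosc9. Between controls they were -0.257 to 0.0261 for Exosc1, -0.51 to 0.35 for Exosc2, -0.42 to 0.16 for Exosc7 and -0.13 to 0.20 for Exosc8, and at the +/- genotype -0.28 to 0.18 for Exosc5 and -0.0067 to 0.33 for Exosc8. The causes were not tested. Among the members, Dis3 and Dis3l, the lowest count in an embryo was 29, for Dis3l.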
